A study of Mus musculus with 6 samples.

Results

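The azurophil granule genes followed here are 8 genes given by symbol: Mpo, Elane, Prtn3, Ctsg, Prss57, Ms4a3, Serpinb1a and Fcnb. All 8 of 8 were found among the 23016 genes of the deposited count table, and the rule that names them uses no measured value. The study set neutrophil formation in aged wild-type mice beside that in young ones, without treatment and following an experimental stroke. Single cells were profiled with the 10x Genomics Chromium 3′ kit v3.1, which counts unique molecular identifiers (UMIs, 1 per captured transcript) at the 3′ end of transcripts. The 6 libraries, 1 per group, were bone marrow of untreated young mice and of untreated aged mice, bone marrow of young and of aged mice 24 h after middle cerebral artery occlusion (MCAO, a stroke model), and blood of untreated young and untreated aged mice. Marrow cells were enriched by sorting for Gr1+ and c-kit+ fractions, and blood cells were sorted as CD11b+ Ly6G+ and CD11b+ Ly6G−, so the sorts help to set which cells could be seen. Exact ages, the number of mice behind each library and a sham-operated group are not named in the labels. With 1 library per group there were no replicates: intervals below cover counting error only, and no difference was checked against the spread between animals.

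Azurophil granules, also called primary granules, are the first granules that a developing neutrophil makes. Their proteins are synthesised in a short window at the promyelocyte stage, packed around the proteoglycan serglycin, and then carried for the rest of the cell's life while transcription of their genes stops; the specific granules are filled in the next stage. Mpo encodes myeloperoxidase, which makes hypochlorous acid. Elane, Prtn3, Ctsg and Prss57 encode the neutrophil serine proteases (neutrophil elastase, proteinase 3, cathepsin G and neutrophil serine protease 4), which are activated by the cathepsin encoded by Ctsc. Ms4a3 encodes a tetraspan membrane protein of committed granulocyte and monocyte progenitors, Serpinb1a a cytosolic inhibitor of these proteases, and Fcnb a ficolin, a lectin of the complement system.

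On GRCm38 (GENCODE vM21), 3 of the 4 protease genes lie together on chromosome 10, namely Prss57 at 79781474 to 79790961 on the minus strand, Prtn3 at 79874476 to 79883174 and Elane at 79886247 to 79888215, both on the plus strand. Only 3072 bases separate Prtn3 from Elane, while 83514 bases separate Prss57 from Prtn3. Mpo lies on chromosome 11 at 87793581 to 87804413 (plus), Ctsg on chromosome 14 at 56099881 to 56102574 (minus) and Ms4a3 on chromosome 19 at 11629496 to 11640851 (minus). Serpinb1a lies on chromosome 13 at 32842092 to 32851185 (minus) and Fcnb on chromosome 2 at 28076378 to 28084885 (minus). All are protein-coding. The ends of Prss57 and of Fstl3, a gene on the opposite strand, overlap, as do the starts of Prtn3 and Plppr3, and the antisense gene Gm11505 lies within Mpo. Whether counting used strand is not stated in the labels or notes, so reads of overlapping pairs cannot be told apart. Serpinb1a has close family copies, and the handling of reads with more than 1 matching gene is not stated either, which makes its values uncertain.

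Because 6 members peaked at the same stage and Fcnb peaked later, their promoters are shown for comparison. RefSeq (GRCm38.p6) holds promoter entries for 6 of the 8 members, with none for Prss57 and Serpinb1a in the table used. Below are the 250 bases before the RefSeq start of 4 of them, written 5′ to 3′ on the strand of the gene, with capitals marking GGAAGT, the core recognised by ETS factors such as PU.1. Windows are chr11:87793534-87793783 (plus) for Mpo, chr10:79886062-79886311 (plus) for Elane, chr10:79879417-79879666 (plus) for Prtn3 and chr2:28084879-28085128 (minus) for Fcnb. The RefSeq starts of all 4 lie downstream of the GENCODE gene starts, so these windows reach into the annotated genes, and that of Prtn3 lies wholly within its gene.
Mpo: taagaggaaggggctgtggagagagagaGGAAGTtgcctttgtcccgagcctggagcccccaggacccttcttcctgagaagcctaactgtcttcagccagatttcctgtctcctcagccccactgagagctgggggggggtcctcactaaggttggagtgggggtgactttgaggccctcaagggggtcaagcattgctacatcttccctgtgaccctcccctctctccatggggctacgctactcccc
Elane: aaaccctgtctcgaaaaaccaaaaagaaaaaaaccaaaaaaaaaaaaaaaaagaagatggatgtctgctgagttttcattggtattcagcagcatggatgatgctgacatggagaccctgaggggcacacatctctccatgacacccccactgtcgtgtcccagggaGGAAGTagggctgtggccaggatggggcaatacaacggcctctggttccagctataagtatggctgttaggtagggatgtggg
Prtn3: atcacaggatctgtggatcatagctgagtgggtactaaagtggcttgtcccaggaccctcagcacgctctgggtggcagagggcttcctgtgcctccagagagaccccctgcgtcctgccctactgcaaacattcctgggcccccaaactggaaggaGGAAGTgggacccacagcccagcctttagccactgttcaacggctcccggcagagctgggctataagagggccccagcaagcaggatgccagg
Fcnb: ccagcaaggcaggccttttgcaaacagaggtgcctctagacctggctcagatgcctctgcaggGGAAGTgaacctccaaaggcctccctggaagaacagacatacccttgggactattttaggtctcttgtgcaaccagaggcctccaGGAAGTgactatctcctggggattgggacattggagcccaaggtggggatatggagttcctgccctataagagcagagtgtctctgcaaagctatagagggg
Searched on both strands, GGAAGT occurred in 6 of the 6 members' windows, against 19.99% of 27025 promoter windows of the same length. It lay 216 bases before the start of Mpo, 199 before that of Ctsg, 77 before the start of Elane, 87 before that of Prtn3, 49 before that of Ms4a3 and, at its nearer match, 96 before that of Fcnb. The RUNX letters TGTGGT occurred in 1 of 6 windows (Ctsg), against 14.18% of all. The C/EBP letters TTNNGNAA occurred in 2 of 6 (Ms4a3 and Fcnb), against 36.89%. The motifs were chosen with the members known, and a match describes letters, not binding.

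Library depth ran from 10208699 UMIs (young blood) to 72743805 UMIs (young marrow without treatment), and 1980 to 7924 cells per library were kept. Across whole libraries the 8 genes took 1.263% (young) and 1.226% (aged) of the UMIs of untreated marrow, 0.4231% and 0.6951% following stroke, and 0.003137% and 0.003374% of blood UMIs. Of 27931 distinct barcodes, 104 occurred in 2 or more libraries. Cells were clustered within each context without the 8 genes and named from other markers, so all names stand for "like" that class: stem and multipotent progenitors, granulocyte progenitors, dividing pre-neutrophils, immature neutrophils and mature neutrophils. Mature neutrophils could be named in blood and in marrow after stroke but not in untreated marrow. After stroke 52.4% of young and 39.1% of aged cells stayed unnamed, against 13.5% and 12.9% at steady state. The stages held 739 and 504 granulocyte progenitors at steady state but 66 and 180 after stroke, with a median of 11729 and 15705 UMIs per cell against 60280 and 53505. The highest mitochondrial share of a cell was 9.90% and 9.95% after stroke, against 4.91% and 4.99% without treatment. These differences in cells, depth and filtering go with every comparison of stroke with steady state below, and their part in it was not tested.

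Across the stages the 8 genes fell into an early and a later group. In all 4 marrow libraries Mpo, Elane, Prtn3, Ctsg, Prss57 and Ms4a3 stood highest in granulocyte progenitors (24 of 32 combinations of gene and library), and Serpinb1a and Fcnb stood highest in dividing pre-neutrophils (the other 8). The count of 24 was the same under every clustering setting tried. Levels are given as CPM, the UMIs of a gene for every 1000000 UMIs of its class in that library. They are sums over cells, in which fewer cells with a transcript and less transcript per cell cannot be told apart, so shares of cells are given beside the main values.

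**Figure D1:**
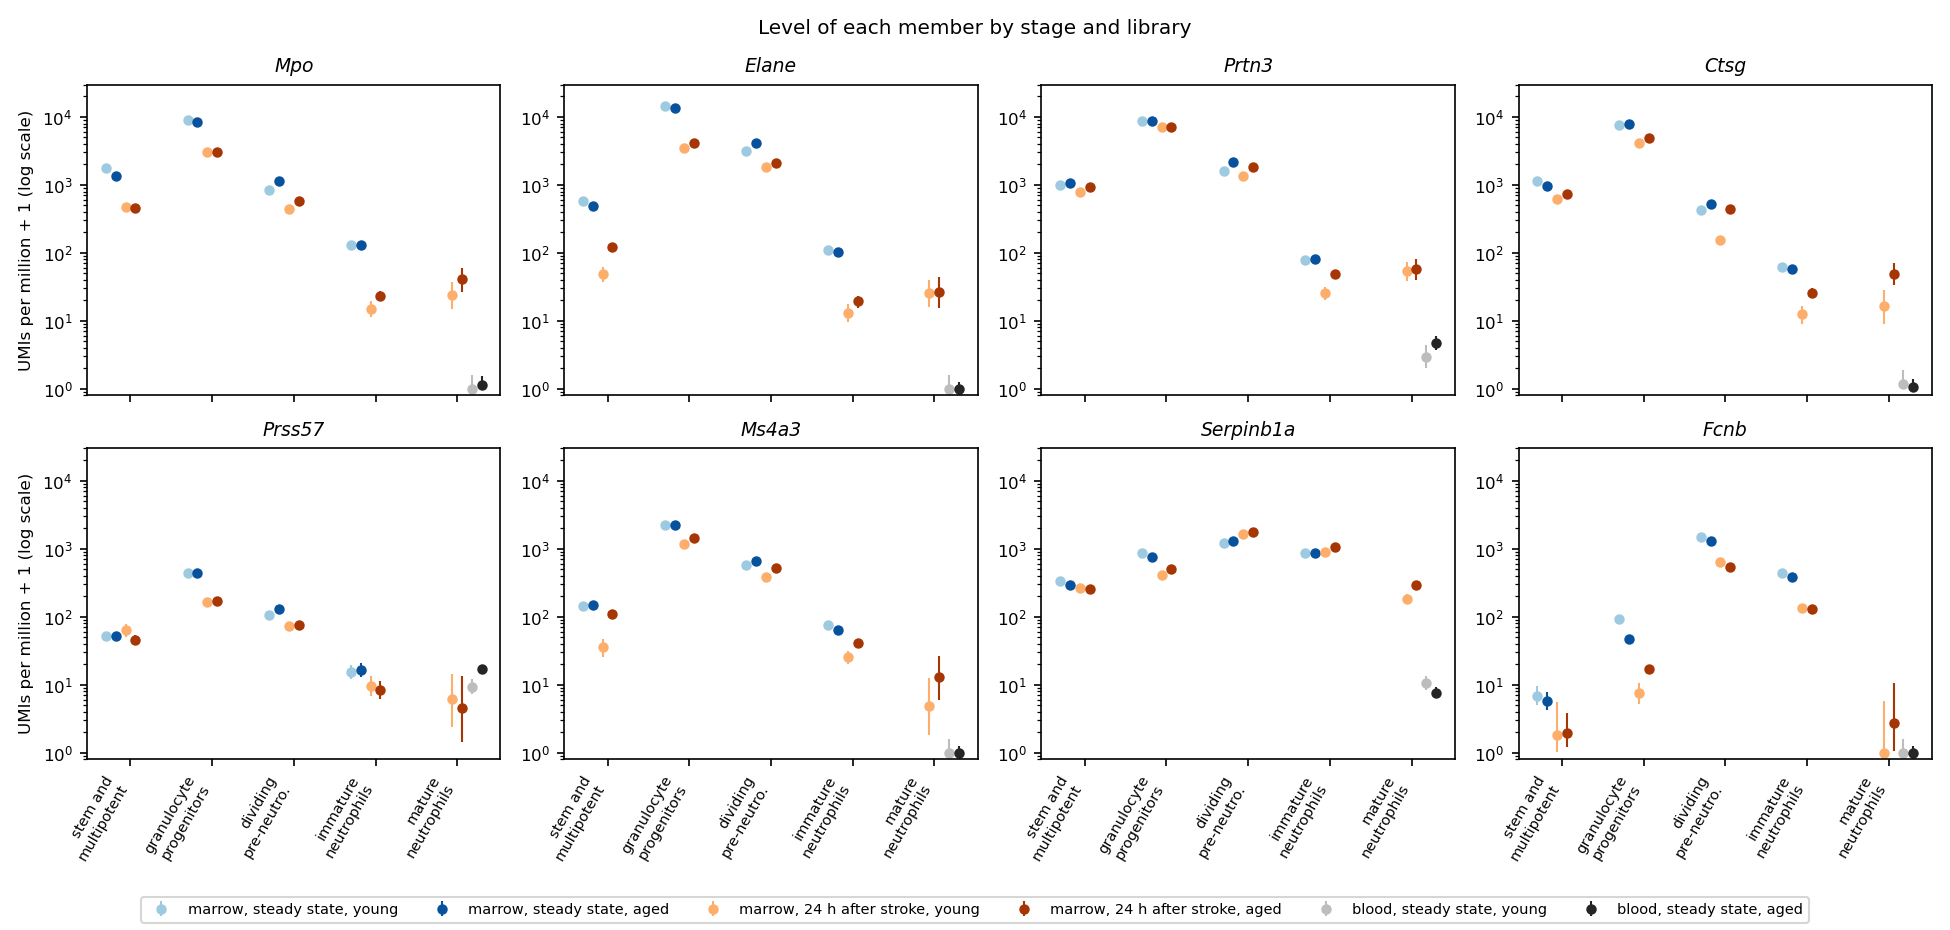
Level of each of the 8 genes in 5 stages of the neutrophil lineage (horizontal axis), as CPM + 1 on a log axis, with 1 point per library in each stage and bars for exact 95% Poisson intervals. The early 6 genes peak in granulocyte progenitors, Serpinb1a and Fcnb in dividing pre-neutrophils, and blood neutrophils sit near the bottom of the axis for most genes.

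Mpo stood at 1772 and 1341 CPM in stem and multipotent progenitors of young and aged steady-state marrow and at 474 and 450 CPM after stroke. In granulocyte progenitors it reached 8928 CPM (exact 95% Poisson interval 8867 to 8990) in the young and 8429 CPM (8366 to 8492) in the aged steady-state library, and 3068 CPM (3012 to 3124) and 3094 CPM (3058 to 3131) after stroke. The step from stem to granulocyte progenitors was 5.04- to 6.88-fold upward in the 4 libraries, and the next step, to dividing pre-neutrophils, was 5.39- to 10.7-fold downward. Dividing cells held 831 and 1122 CPM of Mpo at steady state and 444 and 574 CPM after stroke. In no library did the interval of granulocyte progenitors overlap that of either other stage. The intervals of stem progenitors and dividing cells overlapped in the young stroke library (474 and 444 CPM).

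Elane, the elastase gene, had the steepest entry. From 583 and 486 CPM in steady-state stem progenitors (47.4 and 120 CPM after stroke) it reached 14696 and 13497 CPM in granulocyte progenitors (3522 and 4075 CPM after stroke), a step of 25.2- to 74.2-fold. It declined less than Mpo on the next step: dividing pre-neutrophils still held 3101 and 4160 CPM at steady state and 1818 and 2084 CPM after stroke, 1.94- to 4.74-fold below the progenitors.

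Prtn3, its neighbour on chromosome 10, stood at 8732 and 8797 CPM in steady-state granulocyte progenitors and at 7020 and 7080 CPM after stroke, the 4 values closest to each other among the early 6 genes. It was 7.50- to 8.86-fold lower in stem progenitors (1012 and 1051 CPM, 792 and 943 CPM after stroke). Dividing cells held 1584 and 2203 CPM at steady state and 1361 and 1855 CPM after stroke, 3.82- to 5.51-fold below the progenitors.

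Ctsg, the cathepsin G gene, ended earliest. It stood at 7604 and 7740 CPM in steady-state granulocyte progenitors and at 4094 and 4964 CPM after stroke, and dropped 11.3- to 27.1-fold on entry into dividing pre-neutrophils (423 and 532 CPM, 151 and 441 CPM after stroke). Prss57 was measured at 437 CPM in both steady-state libraries of granulocyte progenitors and at 163 and 171 CPM after stroke, 2.62- to 8.56-fold above the stem progenitors and 2.25- to 4.18-fold above the dividing cells. Ms4a3 reached 2224 and 2200 CPM in steady-state granulocyte progenitors and 1166 and 1447 CPM after stroke, a step of 13.1- to 33.9-fold from the stem progenitors.

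Both later genes behaved differently from the proteases. Serpinb1a, the protease inhibitor, stood at 863 and 765 CPM in steady-state granulocyte progenitors (405 and 499 CPM after stroke) and at 1230 and 1281 CPM in dividing pre-neutrophils (1634 and 1786 CPM after stroke), 1.43- to 4.04-fold higher. It was retained in immature neutrophils, at 865 and 854 CPM at steady state and 883 and 1065 CPM after stroke, only 1.42- to 1.85-fold below the dividing cells. Fcnb was low before the dividing pre-neutrophil stage: granulocyte progenitors held 90.9 CPM (84.8 to 97.3) and 45.2 CPM (40.7 to 50.05) at steady state and 6.46 CPM (4.14 to 9.61) and 15.8 CPM (13.3 to 18.6) after stroke. Dividing pre-neutrophils then held 1465 and 1303 CPM (642 and 538 CPM after stroke), 16.1- to 99.5-fold higher, with a Fcnb UMI in 96.1% and 95.4% of cells at steady state and in 82.1% and 91.6% after stroke. Immature neutrophils kept 443 and 376 CPM of Fcnb at steady state and 134 and 130 CPM after stroke.

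In immature neutrophils Mpo, Elane, Prtn3 and Ctsg stood at about the level of lymphoid and erythroid cells, which is taken here as the level of free RNA. Free RNA was not measured directly. Immature neutrophils of steady-state marrow held 130 and 131 CPM of Mpo, and those after stroke 14.2 and 22.3 CPM. Lymphoid and erythroid cells of the same libraries, which should lack these transcripts, held 92.8 to 204 CPM of Mpo at steady state and 19.4 to 46.9 CPM after stroke. Elane (111 and 104 CPM, 12.04 and 18.4 CPM after stroke) was in the same position, beside 80.4 to 124 CPM in the lymphoid and erythroid cells at steady state and 5.67 to 50.7 CPM after stroke. A Mpo UMI was found in 47.2% and 50.8% of immature neutrophils at steady state, at a median of 5116.5 and 6288 UMIs per cell, and in 57.9% to 69.4% of the lymphoid and erythroid cells. Both ends of the steady-state Mpo range came from a lymphoid class of few cells, while 575 young and 481 aged erythroid cells held 166 and 162 CPM. Values of Mpo, Elane, Prtn3 and Ctsg in immature neutrophils are therefore read as background, not as expression. Ms4a3 in immature neutrophils (74.5 and 63.1 CPM, 24.1 and 40.3 CPM after stroke) and Prss57 (14.4 and 15.5 CPM, 8.64 and 7.30 CPM after stroke) were above the highest lymphoid or erythroid value of their library, which was 27.8, 20.4, 19.03 and 13.7 CPM for Ms4a3 and 9.67, 10.5, 4.25 and 5.63 CPM for Prss57. For Serpinb1a and Fcnb the immature neutrophils stood far above it: Fcnb was at most 5.93 CPM in the lymphoid and erythroid cells. The Prss57 values of immature neutrophils after stroke rest on 28 and 35 UMIs. Fstl3, whose end overlaps that of Prss57, stood at 9.66 and 10.9 CPM in immature neutrophils at steady state and at 8.33 and 6.47 CPM after stroke. Reads of these genes cannot be told apart without strand.

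The stages are themselves mixed. In steady-state marrow 1 of the dividing clusters, which held 41.8% of young and 35.2% of aged dividing pre-neutrophils, carried most of the early transcripts. Its Elane level was 6636 and 10198 CPM (young and aged), against 314 and 299 CPM in the other dividing cells, and its Mpo level 1706 and 2679 CPM against 142 and 126 CPM. Fcnb and Serpinb1a changed less between these cells, with 2187 and 2011 CPM of Fcnb in the early cluster and 895 and 851 CPM in the rest. After stroke the matching cluster held 26.2% of young (22 cells) and 48.0% of aged (86 cells) dividing pre-neutrophils, with 5506 and 3557 CPM of Elane against 641 and 1009 CPM. Clustering at resolution 0.5 or 2 placed the border elsewhere: the 8 genes then summed to 4926 and 4773 CPM (0.5) or 4872 and 4735 CPM (2) in steady-state dividing cells, against 9308 and 11382 CPM in the clustering used here. The drop of Mpo from granulocyte progenitors to dividing cells, at most 10.7-fold here, ran up to 35.1- and 36.9-fold at those resolutions, and that of Elane, at most 4.74-fold here, up to 13.9- and 14.3-fold. The stem and multipotent class was mixed too: at steady state its clusters ranged from 136 CPM of Mpo (19 young cells) and 138 CPM (276 aged cells) in 1 cluster to 3171 and 3227 CPM (281 and 200 cells) in another.

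In blood neutrophils 5 of the 8 genes (Mpo, Elane, Ctsg, Ms4a3 and Fcnb) were at or near the limit of detection, in spite of 6234307 (young) and 13676693 (aged) UMIs from 1593 and 3295 neutrophils. Mpo had 0 and 2 UMIs, Ctsg 1 and 1, and Elane, Ms4a3 and Fcnb 0 in both libraries. A count of 0 allows a level of up to 0.481 CPM (young) and 0.219 CPM (aged), taken as 3 counts per library, and a share of cells with a UMI of up to 0.188% and 0.0910%. Prtn3 had 12 and 51 UMIs, or 1.92 CPM (0.995 to 3.36) and 3.73 CPM (2.78 to 4.90).

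Prss57 and Serpinb1a remained measurable in blood. Prss57 had 52 and 219 UMIs in blood neutrophils, or 8.34 CPM (6.23 to 10.9) in young and 16.0 CPM (14.0 to 18.3) in aged cells, with a UMI in 2.95% (exact 95% binomial interval 2.18% to 3.904%) and 5.92% (5.14% to 6.78%) of neutrophils at a median of 3916 and 4021 UMIs per cell. With every cell thinned to 2000 UMIs, which left out 133 and 10 shallower cells, the shares were 1.78% and 2.44%. No Prss57 UMI was found in B, T or NK cells of blood (43 and 187 B cells and 109 and 280 NK cells, at medians of 5410 to 5708 UMIs), nor in classical monocytes (0 of 121 and 0 of 474 cells at medians of 12909 and 12428 UMIs, which allows shares of up to 2.48% and 0.633%). Different clusters held most of the young and aged blood neutrophils. Within cluster 2, which held most young ones, Prss57 stood at 9.97 CPM in 942 young and 18.2 CPM in 153 aged cells, and within cluster 3 at 9.54 CPM in 278 young and 22.0 CPM in 341 aged cells. Fstl3, whose end overlaps that of Prss57 on the opposite strand, had 16 and 46 UMIs (2.57 and 3.36 CPM) in blood neutrophils, and the 2 genes' reads cannot be told apart without strand. Serpinb1a had 59 and 91 UMIs in blood neutrophils (9.46 and 6.65 CPM), far below the 252 and 195 CPM in blood B cells.

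Mature neutrophils of marrow after stroke (145 young and 93 aged cells) lay between. Mpo stood at 23.3 and 39.9 CPM, Elane at 24.6 and 26.0 CPM and Prtn3 at 53.2 and 57.3 CPM, all within the range of the lymphoid and erythroid cells of the same libraries. Serpinb1a stood above that range in the aged library only, at 180 CPM (152 to 213) and 286 CPM (244 to 334), beside 248.9 and 124 CPM in B cells, which themselves express it. Fcnb had 0 and 1 UMI, where 0 allows up to 3.89 CPM.

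The 8 genes were not confined to the neutrophil line. Monocyte progenitors of steady-state marrow (1161 young and 801 aged cells) held 4888 and 4820 CPM of Mpo, 3979 and 4234 CPM of Elane and 4223 and 4798 CPM of Prtn3. Classical monocytes of marrow kept Prtn3, with 1247 and 1257 CPM at steady state and 1634 and 2009 CPM after stroke, beside 519 and 396 CPM of Mpo at steady state and 160 and 266 CPM after stroke. In blood, classical monocytes still showed Prtn3, at 26.9 CPM (19.1 to 36.7) and 33.5 CPM (29.0 to 38.5), in 20.7% and 29.3% of cells (0.935% and 6.75% when thinned to 2000 UMIs), whereas B, T and NK cells of blood held 1 Prtn3 UMI in all.

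Basophils and mast cells had a pattern of their own among the 8 genes. At steady state (124 and 143 cells) they held 3850 and 3803 CPM of Ctsg and 885 and 857 CPM of Ms4a3, but 233 and 238 CPM of Elane and 323 and 299 CPM of Prtn3. After stroke (30 and 70 cells) the Ctsg values were 2132 and 4066 CPM. Plasmacytoid dendritic cells held 512 and 608 CPM of Prtn3 at steady state and 375 and 480 CPM after stroke, while their Mpo level was 465 and 332 CPM at steady state and 14.0 and 14.7 CPM after stroke.

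**Figure D2:**
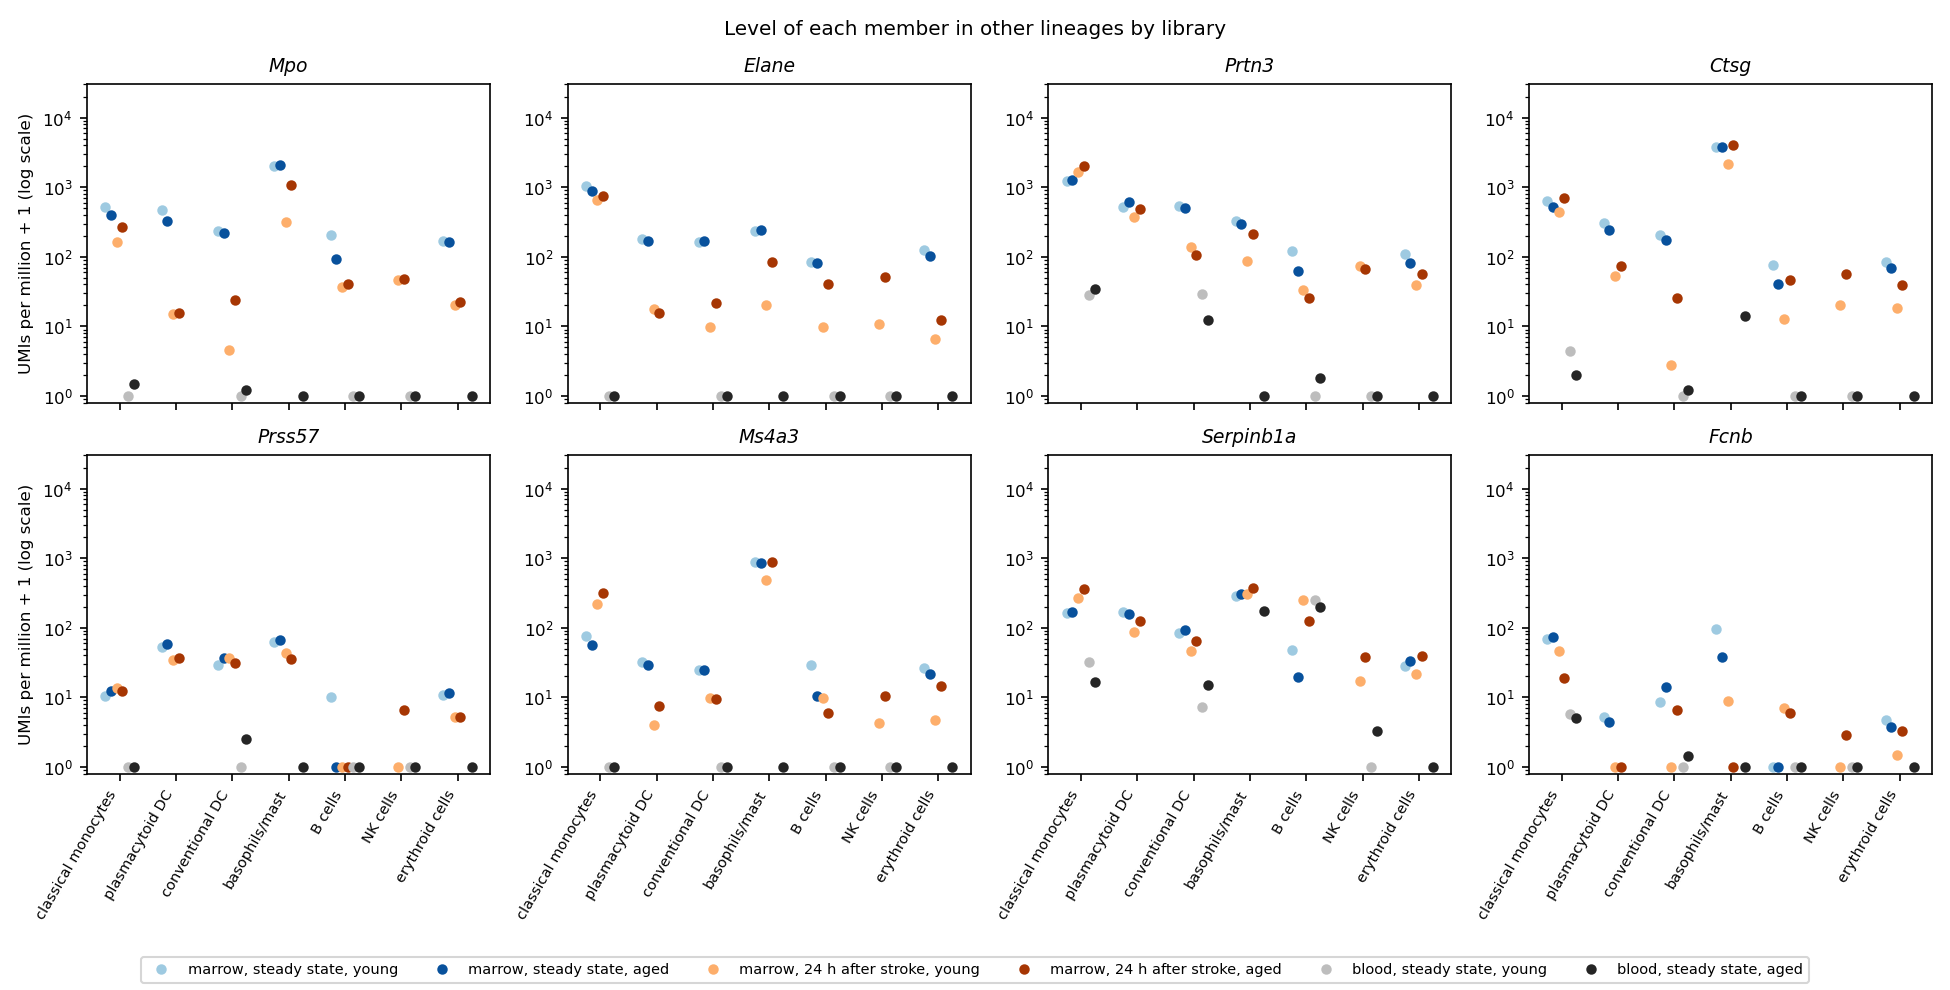
Level of the 8 genes (CPM + 1, log axis) in 7 other classes of marrow and blood, 1 point per library, without error bars. Ctsg and Ms4a3 stand out in basophils and mast cells and Prtn3 in classical monocytes. Apart from Serpinb1a, which B cells express, the values in B, NK and erythroid cells are taken as the free-RNA level of each library, which was not measured directly.

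How closely the 8 genes followed each other was described over 48 points, each a marrow class in a library, as correlations of log2 levels with a pseudocount of 10 CPM. The points share libraries, depth and free RNA, so no test is given. The mean of the other 7 genes correlated with Ms4a3 at 0.92, with Elane at 0.91, with Mpo at 0.90, with Prtn3 and Ctsg at 0.84 and 0.83 and with Prss57 at 0.83, but with Serpinb1a at 0.67 and Fcnb at 0.41. The closest pair was Mpo and Ctsg (0.94), and the neighbours Elane and Prtn3 reached 0.90. Serpinb1a and Fcnb correlated at 0.74 with each other. Among 6526 other genes the most alike were Msantd3 (0.91), Nxn (0.89), Tuba4a (0.84), Gstm1 (0.84), a glutathione transferase gene, Adssl1 (0.84), 1700020L24Rik (0.83), Tmx4 (0.83), Mapkapk3 (0.82) and Alas1 (0.81), the first enzyme of haem synthesis. Gstm1 was itself a marker used to name granulocyte progenitors, so its rank is in part built into the classes.

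The next question was how these levels differed after stroke. In granulocyte progenitors Elane and Mpo, the genes of elastase and myeloperoxidase, fell most among the abundant members, while Prtn3 did not pass the test. The log2 difference of Elane was −1.55 (SE 0.11, adjusted p = 5.08e-09) and that of Mpo −1.15 (SE 0.09, adjusted p = 5.00e-08). Prtn3 differed by 0.03 (SE 0.09, adjusted p = 0.825). In all, 7 of the 8 genes fell and 0 rose, but 49% of the 12302 genes tested (25.7% higher, 23.2% lower) were called in this comparison, so calls as such do not set the 8 genes apart. Their median difference was −0.78, against −0.04 over all genes tested. These tests are edgeR quasi-likelihood tests of an additive model of age and condition over the 4 marrow libraries, with Benjamini-Hochberg adjustment over all genes. There is 1 residual degree of freedom and no replicate animal, so the p-values rest mostly on variation estimated across genes. A small p therefore does not show that the young and the aged pair agree, and the pairs are given beside it.

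Both pairs of libraries gave the same order of Elane, Mpo and Prtn3. On TMM-scaled levels Elane was lower by 1.76 in the young pair (log2, exact 95% interval −1.79 to −1.74) and by 1.35 in the aged pair (−1.36 to −1.33). Mpo was lower by 1.24 (−1.27 to −1.21) and 1.06 (−1.08 to −1.04). Prtn3 differed by −0.02 (−0.04 to 0.00) and 0.07 (0.05 to 0.08). TMM scaling adds 0.30 (young) and 0.38 (aged) to every log2 difference of this class. On plain CPM Prtn3 differed by −0.31 in the young and −0.31 in the aged pair, so differences are read relative to the other genes. For each Mpo UMI the granulocyte progenitors held 0.978 and 1.04 Prtn3 UMIs at steady state and 2.29 in both libraries after stroke, a ratio that no scaling alters.

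Among the remaining members Prss57 fell by 1.04 (SE 0.11, adjusted p = 5.67e-07), Ctsg by 0.43 (SE 0.10, adjusted p = 0.00218), Ms4a3 by 0.43 (SE 0.11, adjusted p = 0.00385) and Serpinb1a by 0.51 (SE 0.12, adjusted p = 0.00247; edgeR). Fcnb fell by 1.98 (SE 0.30, adjusted p = 4.50e-05), from 822 and 370 UMIs to 24 and 145, with pairs of −3.52 and −1.13. In the young stroke library 10 cells held 83.3% of those Fcnb UMIs.

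**Figure D3:**
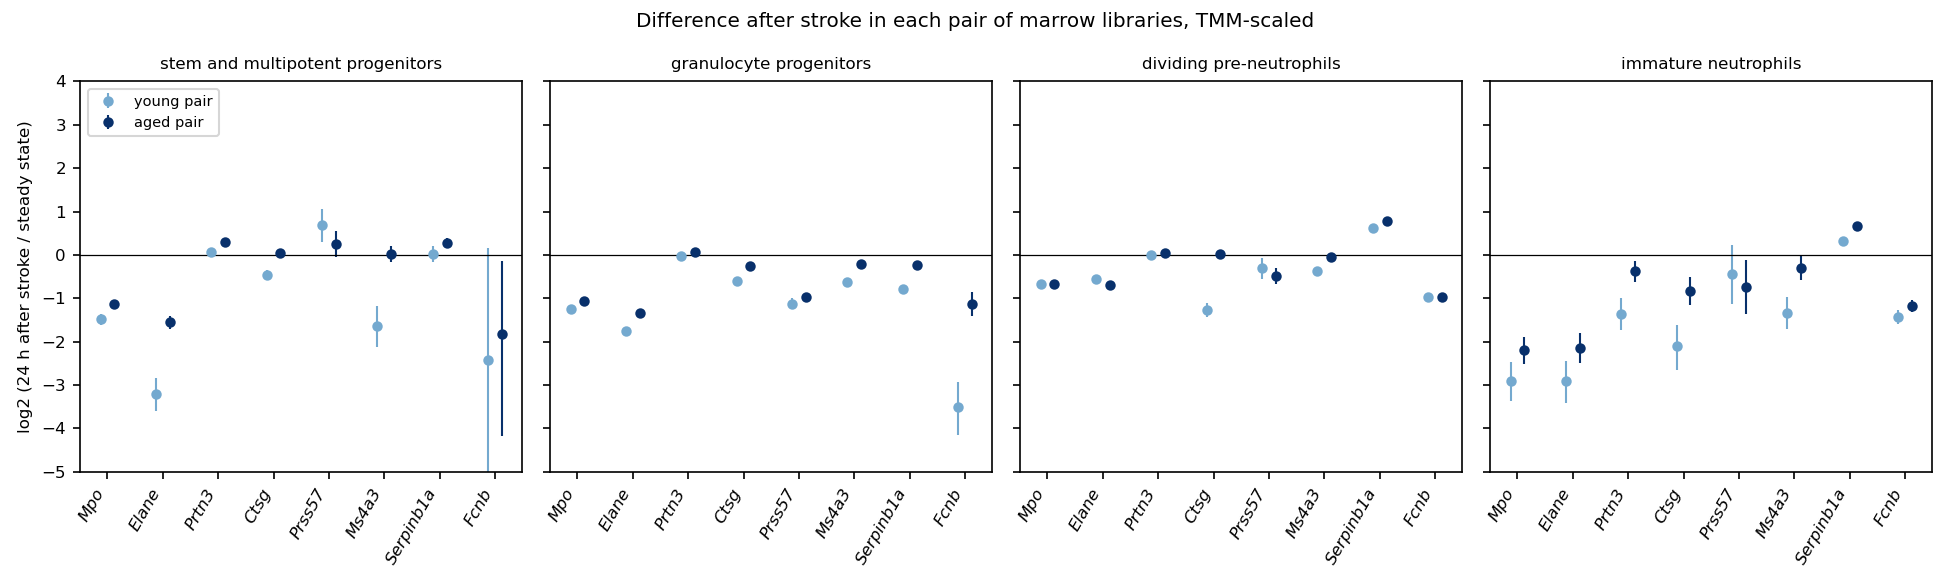
Stroke minus steady state for each gene in 4 stages, as log2 differences of TMM-scaled levels, with the young and the aged pair as separate points and bars for exact 95% intervals (counting error only). Mpo and Elane lie below 0 in both pairs of every stage, Prtn3 lies near 0 in granulocyte progenitors and dividing pre-neutrophils, and the bars of Fcnb in stem progenitors run past the axis.

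The progenitor class after stroke was not made of the same cells. No cluster after stroke was named monocyte progenitor, and Irf8 (log2 difference 1.603) and Klf4 (5.33), transcription factors of the monocyte line, rose in the class named granulocyte progenitor. When granulocyte and monocyte progenitors were joined at steady state, the stroke differences were −0.62 for Mpo and −0.64 for Elane but 0.62 for Prtn3, 0.30 for Ctsg, 0.56 for Ms4a3 and 0.17 for Serpinb1a. The direction for Ctsg, Ms4a3 and Serpinb1a therefore depended on which cells were compared, whereas Mpo and Elane were lower and Prtn3 was not lower in both.

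To narrow the difference in cell make-up, progenitor cells were also split by the share of granulocyte markers among granulocyte and monocyte marker UMIs (11 other genes), into ranges of at least 0.8, under 0.2 and between. These ranges are not cell types, the split was chosen after seeing the data, and its values are plain CPM without a test. Granulocyte-leaning cells numbered 646 (young) and 421 (aged) in untreated marrow and 18 and 72 after stroke, of which 68, 54, 4 and 8 lay within 0.05 of the bound. In them Mpo stood at 9155 and 8804 CPM at steady state and at 5815 and 5066 CPM after stroke, 1.57- and 1.74-fold lower. Elane stood at 15854 and 14864 CPM against 8679 and 8263 CPM, 1.83- and 1.80-fold lower. Prtn3 stood at 9245 and 9406 CPM against 11046 and 10138 CPM. Ctsg (7952 and 8233 CPM against 7170 and 7466 CPM) and Ms4a3 (2404 and 2445 CPM against 2137 and 2077 CPM) moved little. Over single cells the median Mpo level was 9272 and 8905 CPM at steady state and 5812 and 5381 CPM after stroke, and the median Irf8 level was 0 in all 4 libraries. The markers were not level in this range either: Nkg7 stood at 1585 and 1517 CPM against 946 and 828 CPM, and Gstm1 at 727 and 698 CPM against 319 and 266 CPM. Summed over cells, Irf8 stood at 39.3 and 31.4 CPM against 3.21 and 4.05 CPM, while Gfi1 moved little (87.5 and 82.4 CPM against 97.4 and 81.0 CPM). A difference in maturity was therefore not removed.

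The gap was wider in monocyte-leaning cells (461 and 295 at steady state, 25 and 41 after stroke, with 245, 150, 10 and 25 near the bound). Mpo stood at 4354 and 3974 CPM at steady state and at 919 and 902 CPM after stroke, 4.74- and 4.41-fold lower, and Elane was 4.92- and 4.21-fold lower. Prtn3 stood at 3907 and 4238 CPM against 3821 and 3933 CPM. The markers were not level here either: Irf8 stood at 1045 and 861 CPM against 465 and 390 CPM, while Ly86 moved little (312 and 311 CPM against 306 and 290 CPM). The difference in response between the ranges was not tested.

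**Figure D4:**
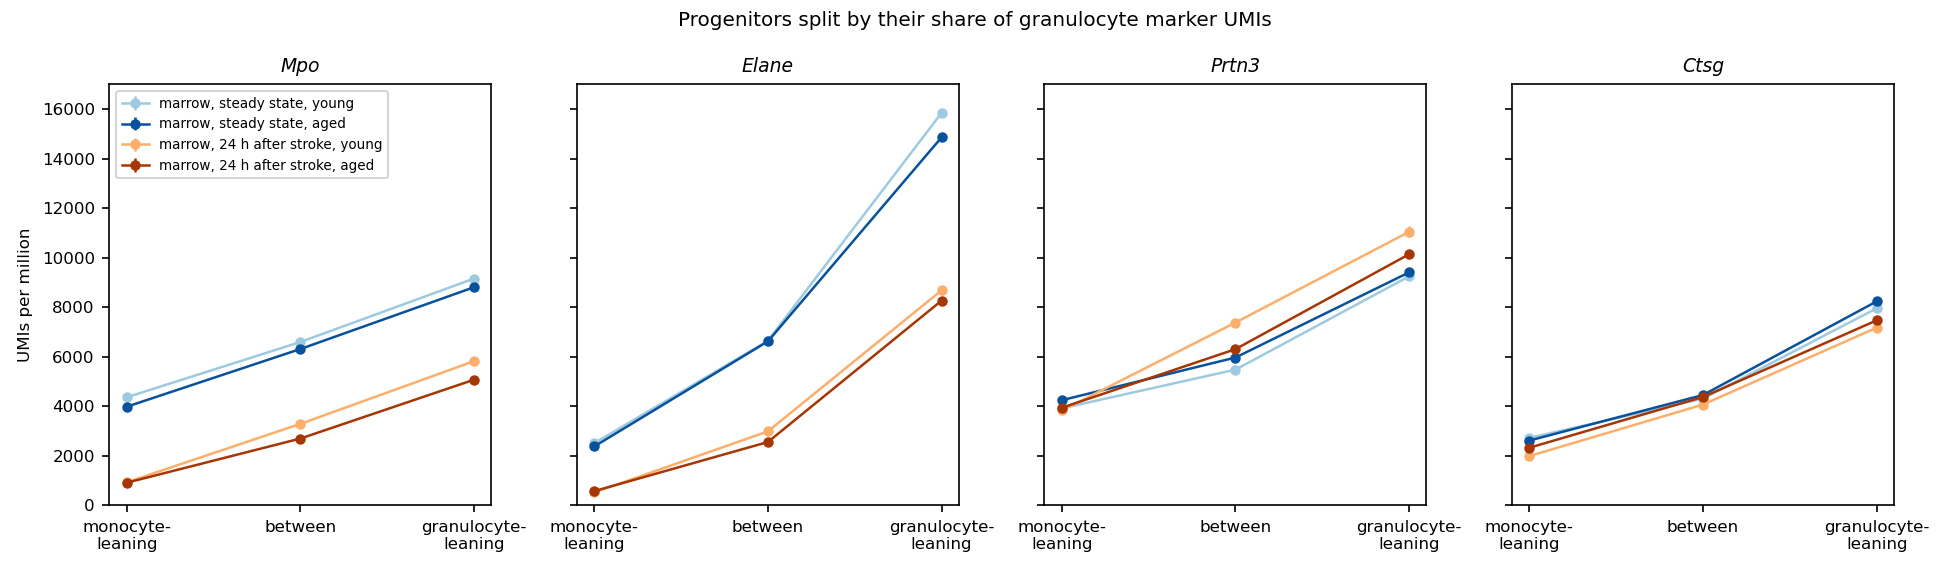
Levels of Mpo, Elane, Prtn3 and Ctsg (CPM, linear axis from 0) in monocyte-leaning, intermediate and granulocyte-leaning progenitor cells, with 1 point per marrow library and bars for exact 95% Poisson intervals. Mpo and Elane of both stroke libraries lie below both steady-state libraries in all 3 ranges, and Prtn3 does not.

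In stem and multipotent progenitors stroke went with lower Mpo and Elane again. Elane fell by 2.14 (SE 0.11, adjusted p = 4.34e-84; pairs −3.21 and −1.56) and Mpo by 1.30 (SE 0.08, adjusted p = 3.79e-54; pairs −1.49 and −1.12), in edgeR's quasi-likelihood test. Ms4a3 fell by 0.51 (adjusted p = 3.16e-04), which rests on the young pair alone (−1.63, with 0.01 in the aged pair). Fcnb fell by 1.99 (adjusted p = 0.0225) on 29 and 31 UMIs at steady state against 1 and 3, and Prss57 rose by 0.44 (adjusted p = 0.0161). Of 8 alternative settings the call held in 4 for Prss57 (adjusted p up to 0.478), in 5 for Ms4a3 and in 6 for Fcnb. Prtn3 (0.18, adjusted p = 0.0635), Ctsg (−0.19, adjusted p = 0.0514) and Serpinb1a (0.16, adjusted p = 0.203) did not pass, although Prtn3 and Ctsg passed in 4 of 8 alternatives each. So 4 of 8 members fell and 1 rose, where 32.6% of the 12161 genes tested were called (17.6% higher, 15% lower). After stroke the 10 richest of 62 young and 154 aged cells held 84.5% and 81.2% of the Elane UMIs and 70.7% and 61.3% of the Mpo UMIs. The steady-state classes held 756 and 824 cells, so these shares cannot be set against steady state.

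In dividing pre-neutrophils 5 members fell, Serpinb1a rose and 2 did not pass, where 30.7% of the 9996 genes tested were called (17% higher, 13.6% lower). Serpinb1a rose by 0.70 (SE 0.11, adjusted p = 6.3e-10; pairs 0.63 and 0.77), from 1230 and 1281 CPM to 1634 and 1786 CPM. Fcnb fell by 0.98 (SE 0.10, adjusted p = 9.73e-20; pairs −0.97 and −0.98), and both stroke libraries lay below both steady-state libraries. These calls held in 7 of 7 alternative settings. Mpo (−0.68), Elane (−0.63), Ctsg (−0.56) and Prss57 (−0.41) passed as well, but with clustering at a lower or higher resolution, which moves the border with the progenitors, their differences turned positive (1.21 and 1.04 for Mpo). Prtn3 differed by 0.02 (adjusted p = 0.902), and by 1.601 at the lower resolution.

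In immature neutrophils 6 members fell and Serpinb1a rose, where 26.8% of 8938 genes were called (15% higher, 11.8% lower). Serpinb1a rose by 0.50 (SE 0.09, adjusted p = 8.57e-07; pairs 0.32 and 0.67), a call that held in 6 of 7 alternatives and was lost at resolution 0.5 (0.27, adjusted p = 0.0966). Fcnb fell by 1.31 (SE 0.10, adjusted p = 2.57e-33; pairs −1.43 and −1.19). The calls for Mpo (−2.49), Elane (−2.46), Ctsg (−1.34) and Prtn3 (−0.80) compare levels at the free-RNA background, which was itself lower after stroke (Mpo 19.4 to 46.9 CPM against 92.8 to 204 CPM).

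Mpo and Elane were lower outside the neutrophil line as well. In classical monocytes, conventional and plasmacytoid dendritic cells and basophils and mast cells, counted where steady state had at least 20 UMIs, Mpo was lower in 8 of 8 pairs (plain CPM, log2 difference −6.05 to −0.58) and Elane in 8 of 8 (−4.19 to −0.25), with every interval below 0. Several of these stroke values lie at the free-RNA level, such as the 14.0 and 14.7 CPM of Mpo in plasmacytoid dendritic cells. Some steady-state values were near it too: conventional dendritic cells held 234 and 222 CPM of Mpo, beside up to 204 and 162 CPM in lymphoid and erythroid cells. Mpo in classical monocytes (519 and 396 CPM) and in basophils and mast cells (2020 and 2083 CPM) stood further above it. In erythroid cells Mpo went from 166 and 162 CPM to 19.4 and 21.2 CPM after stroke. The part of free RNA in these differences was not tested. Prtn3 was lower in 6 of the 8 pairs and higher in both pairs of classical monocytes. Over all marrow classes, neutrophil stages and erythroid cells included, with at least 20 UMIs on each side, Mpo was lower after stroke in 15 of 15 pairs (plain CPM, median log2 difference −1.70, range −3.30 to −0.58) and Elane in 13 of 13 (median −2.01). Fcnb was lower in 8 of 8. Prtn3 was lower in 16 of 18 pairs with a median of −0.40, and Serpinb1a was higher in 9 and lower in 9. In the marrow neutrophil stages TMM scaling added 0.22 to 0.45 to the log2 differences after stroke. The plain CPM median of Prtn3 therefore does not show a fall relative to other genes. How many of all genes were lower in as many pairs was not counted. These pairs share libraries and free RNA, and the immature neutrophil and erythroid pairs of Mpo and Elane lie at the free-RNA level. The ratio of Prtn3 to Mpo UMIs was also higher after stroke in classical monocytes, at 2.40 and 3.18 against 10.2 and 7.57, and in stem progenitors, at 0.571 and 0.784 against 1.67 and 2.10. Ap3s1, which encodes a subunit of the adaptor that sorts cargo to granules, was higher in 18 of 18 such pairs (0.36 to 2.60). In conventional dendritic cells both of its intervals included 0 (young −0.24 to 1.26, aged −0.16 to 0.86). Classes with under 30 cells in a library were not compared, and Ap3s1 was picked after its values were seen. Whether its higher level reflects stroke or the making of the libraries cannot be told apart.

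Other genes of granule formation did not move as 1 block after stroke. In granulocyte progenitors, where 25.7% of all genes tested were called higher and 23.2% lower, 4 of 17 genes of granule packing and protein processing rose and 8 fell. Ctsc, the protease that activates the serine proteases, rose by 2.34, and Ap3s1 by 1.69, while Srgn, the serglycin that binds them, fell by 1.08 (edgeR, adjusted p under the threshold of 0.05). Of 12 lysosomal genes 6 fell and 0 rose (Arsb −1.43, Lyz2 −0.70). Of 11 transcription factors 5 rose (Klf4, Cebpb 1.39, Irf8) and 5 fell (Myb −1.38). Of 10 specific granule genes 4 rose (Chil3 2.07, Hp 1.13) and 5 fell (Ltf −2.31, Ngp −2.05). In dividing pre-neutrophils the specific granule genes leaned the other way, with 6 of 10 higher (Hp 0.90, Cd177 0.86, Lcn2 0.80) and 1 lower, beside 17% and 13.6% of all genes tested. In immature neutrophils 5 of 10 were higher and 0 lower, beside 15% and 11.8%. The difference between the specific granule genes and the 8 members was not tested.

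The last question was age. In granulocyte progenitors, where the early genes are highest, 0 of the 8 members passed the test of age (edgeR quasi-likelihood), and 0 of 8 had an unadjusted p under 0.05; DESeq2 called 1 gene among all tested in this class and edgeR 3 of 12302 (0.0244%). Mpo was 8928 CPM in young and 8429 CPM in aged cells at steady state and 3068 and 3094 CPM after stroke, and the TMM-scaled pairs were −0.12 (−0.13 to −0.10) and 0.06 (0.03 to 0.09). Elane had pairs of −0.16 and 0.26, and Prtn3 of −0.02 and 0.06. The members' median difference was 0.04, beside 0.01 over all genes. Within the granulocyte-leaning range at steady state the young and aged levels were also close, at 9155 and 8804 CPM for Mpo and 9245 and 9406 CPM for Prtn3.

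**Figure D5:**
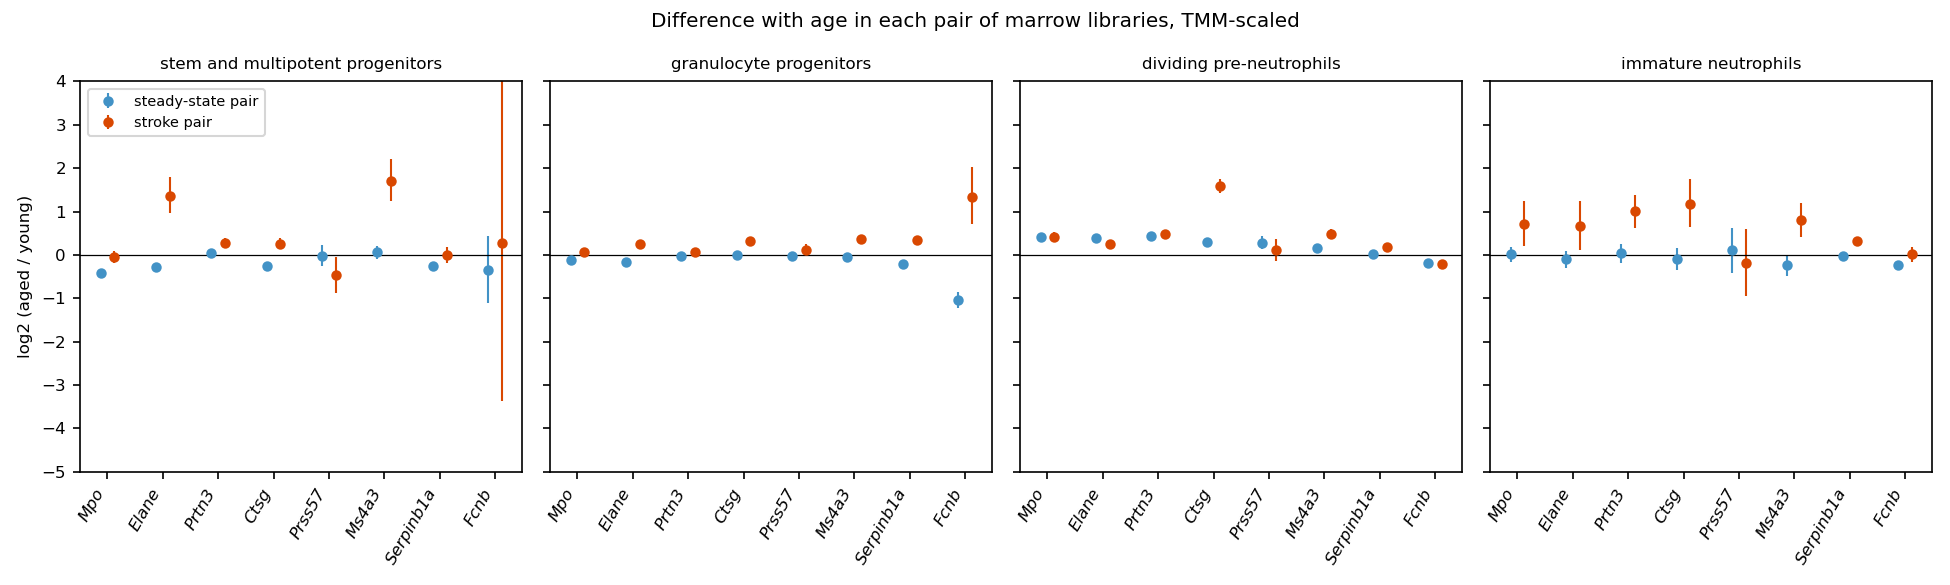
Aged minus young for each gene in 4 stages, as log2 differences of TMM-scaled levels, with the steady-state and the stroke pair as separate points and bars for exact 95% intervals (counting error only). In granulocyte progenitors most points lie near 0, in dividing pre-neutrophils Mpo, Prtn3 and Ctsg lie above 0 in both pairs, and the bars of Fcnb in stem progenitors run past the axis.

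In the clustering used here, dividing pre-neutrophils differed more with age. Ctsg rose by 0.88 (SE 0.10, adjusted p = 3.97e-15), with pairs of 0.30 at steady state (423 against 532 CPM, young and aged) and 1.59 after stroke (151 against 441 CPM). Prtn3 rose by 0.47 (SE 0.11, adjusted p = 0.00285; pairs 0.45 and 0.49), and Mpo by 0.41 (SE 0.10, adjusted p = 0.00828; pairs 0.40 and 0.42; edgeR). These 3 of 8 members were called where 0.87% of 9996 genes were (0.56% higher, 0.31% lower), and 0 fell. Elane (0.32, adjusted p = 0.248) and Ms4a3 (0.31, adjusted p = 0.118) did not pass, with both pairs above 0, and Fcnb differed by −0.21 with both pairs below 0. Each of the 3 calls held in 4 of 7 alternatives. At resolution 0.5 only 1 of 8 members was called, and 0 of 8 at resolution 2 or with the 8 genes kept in clustering. At steady state Mpo then stood at 253 and 248 CPM (resolution 0.5, young and aged) or 237.5 and 239 CPM (resolution 2). Ctsg stood at 89.8 and 72.7 CPM or 85.7 and 71.2 CPM, and Prtn3 at 571 and 631 CPM or 538 and 605 CPM. The early dividing cluster took 41.8% (young) and 35.2% (aged) of the class at steady state and 26.2% and 48.0% after stroke. Within that cluster Mpo was 1706 and 2679 CPM at steady state but 1594 and 1140 CPM after stroke, so the 2 contexts went opposite ways there, and the part of the mixture in the class result was not tested.

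In stem and multipotent progenitors Ms4a3 rose with age by 0.52 (SE 0.12, adjusted p = 0.00185), which came from the stroke pair (1.70, 42 against 340 UMIs) and not from the steady-state pair (0.06, −0.09 to 0.20). It was the 1 member of 8 that passed, where 1.89% of 12161 genes were called (1.32% higher, 0.576% lower). Mpo differed by −0.25 (adjusted p = 0.0772). In immature neutrophils 0 of 8 members passed (0.448% of 8938 genes were called, 0.336% higher and 0.112% lower), and in mature neutrophils 0 of the 6 members that could be tested (0.157% of 8942 genes were called, 0.0224% higher and 0.134% lower). Prss57 in mature neutrophils differed by 0.78 (SE 0.44, adjusted p = 0.99997), with 0.93 in the blood pair (0.48 to 1.39, counting error only) and −0.43 in the marrow pair, which had 4 and 2 UMIs.

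Of the other lists few genes passed with age. In granulocyte progenitors none of the 6 lists (granule processing, lysosomal, transcription factor, inhibitor, specific granule and cell cycle genes) had a member past the edgeR threshold. In dividing pre-neutrophils 3 of 17 granule processing genes rose (Srgn 0.49, Ap3s1 0.43 and Hspa5 0.40) and 1 of 10 specific granule genes (Olfm4 0.97), where 0.56% of all genes tested were called higher. In immature neutrophils Ap3s1 (0.47) and Olfm4 (0.95) rose again, where 0.336% were called higher. In stem progenitors Irf8 fell by 1.23, while Serpina3g, a serpin gene, rose by 0.70 and Ube2c, a cell cycle gene, by 0.56, where 0.576% were called lower and 1.32% higher.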

How the data were processed

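Single-cell RNA of 6 libraries was counted, 1 per group of age (young, aged) and context (bone marrow untreated, bone marrow 24 h after MCAO, blood untreated). The counts, as deposited by the authors, are whole UMIs per gene and cell (23016 genes, 28055 barcodes) in a single table whose column names show the library. Named per the submitters' processing notes are STAR 2.5.3a, featureCounts 1.6.4, Subread, UMI-tools, Cell Ranger 3.0.2 and GRCm38 (mm10). Their roles, the libraries each was used for and the strand setting are not given in the sources used here. In the deposited counts no barcode has under 201 genes.

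Barcodes with at least 500 UMIs, 200 genes and at most 10% mitochondrial UMIs were used. Doublets were called per library by simulating pairs, Scrublet-style, with a score above 0.25 as the bound; this took out 1.85% to 3.52% of cells in the untreated libraries but 0.309% (young) and 0.414% (aged) after stroke, where 4.75% and 10.5% of simulated doublets passed the score, so doublets remain there. Cells of each context were clustered without the 8 genes (2000 variable genes, 30 components, 15 neighbours, Leiden resolution 1), and clusters took names from marker lists. The thresholds for naming were set after cluster tables had been seen. UMIs were summed per class and library, given as CPM with exact Poisson intervals, and classes with at least 30 cells in each library were tested with edgeR 4.0.16 (quasi-likelihood, TMM, filterByExpr; R 4.3.3) in an additive model of age and condition. All genes were tested together, with Benjamini-Hochberg adjustment and a threshold of 0.05. The design allows no interaction term, so pairs of libraries are given with exact conditional binomial 95% intervals. Tests were checked on simulated counts. The mature class was tested over stroke marrow and blood. DESeq2 1.42.0, its size factors, no filter on low counts, kept doublets, other resolutions and clustering with the 8 genes were alternatives.

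All 8 genes were measured in each class, and the text gives a selection of these values. Of other genes, those named are at most 4 per list and test by smallest p, and those most alike over the marrow classes. Ap3s1 over the marrow classes compared was singled out after its values were seen. The members, the gene lists and the markers were chosen with earlier results of these data known. Python 3.11.15, numpy 2.4.6, pandas 2.3.3, scipy 1.17.1, scikit-learn 1.9.0, igraph 0.11.9, leidenalg 0.10.2 and matplotlib 3.10.9 were used.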

Additional observations from a re-analysis of the deposited data

Results flagged for a closer look

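In 10 results every library of 1 context differed with age one way and every library of the other context the opposite way. Each context has a single pair of libraries, and none of these differences between contexts was tested. All values are log2 differences, aged minus young, of TMM-scaled levels, at steady state first and after stroke second.

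Fcnb in granulocyte progenitors had pairs of −1.04 and 1.34, 2.38 apart, on 822 and 370 UMIs at steady state and 24 and 145 after stroke. In the same class the gap was 0.18 for Mpo (−0.12 and 0.06), 0.42 for Elane (−0.16 and 0.26), 0.0849 for Prtn3 (−0.02 and 0.06), 0.41 for Ms4a3 (−0.05 and 0.36) and 0.56 for Serpinb1a (−0.21 and 0.35).

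In stem and multipotent progenitors Elane had pairs of −0.28 and 1.37, a gap of 1.65, the second on 58 and 372 UMIs, of which 10 cells held 84.5% and 81.2%. Ctsg had pairs of −0.26 and 0.26, a gap of 0.51. Ms4a3 in immature neutrophils had pairs of −0.24 and 0.80, a gap of 1.04. Serpinb1a in mature neutrophils had 0.82 in marrow after stroke and −0.52 in blood, a difference of −1.34.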

How the results depend on the processing

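No paired analysis was possible because each group has 1 library and replicate numbers pair no samples, and for the same reason no replicate could be left out. Single pairs of libraries stand in for it. Counts of genes called moved by over 1.5 times as follows (main counts: age 230 in stem and multipotent progenitors, 3 in granulocyte progenitors, 87 in dividing pre-neutrophils, 40 in immature and 14 in mature neutrophils; stroke 3970, 6025, 3066 and 2397). With DESeq2's test, age called 11, 1, 14, 0 and 0 genes in that order and stroke 1059, 2694, 799 and 525. With DESeq2's size factors age called 22 in immature and 9 in mature neutrophils. Without a filter on low counts age called 70 in granulocyte progenitors and 38 in mature neutrophils. With doublets kept it called 40 in granulocyte progenitors, 46 in dividing and 8 in immature cells. At resolution 0.5 it called 69 in granulocyte progenitors and 11 in immature cells, and at resolution 2, chosen after seeing the data, 5 in granulocyte progenitors, 27 in dividing and 17 in immature cells. With the 8 genes kept in clustering it called 151 in stem progenitors, 0 in granulocyte progenitors, 14 in dividing and 30 in mature cells. Joined with monocyte progenitors (also chosen later) granulocyte progenitors had 64, and without steady-state cluster 20 (chosen later) stem progenitors had 88.

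Of the members' tests, 266 of 279 age values and 195 of 240 stroke values stayed on their side of the threshold with no called value changing sign. Of these, 26 age and 9 stroke values, all uncalled, did change sign (such as Mpo with age in stem progenitors, up to 0.0593, and Prtn3 after stroke in stem progenitors, down to −0.23), so 240 and 186 kept both. Stroke values in dividing pre-neutrophils turned at resolution 0.5 to 1.21 (Mpo), 1.01 (Elane), 1.91 (Ctsg), 0.28 (Prss57) and 0.50 (Ms4a3), and at resolution 2 to 1.04 (Mpo), 0.83 (Elane), 1.72 (Ctsg) and 0.11 (Prss57). At resolution 2 stroke values in stem progenitors turned to 0.25 (Ctsg) and 0.11 (Ms4a3). Ms4a3 in immature neutrophils turned to 0.0802 with the 8 genes kept in clustering. In joined progenitors stroke values turned to 0.30 (Ctsg), 0.56 (Ms4a3) and 0.17 (Serpinb1a). In the aged pair alone stroke values turned to 0.0144 for Ms4a3 in stem progenitors and 0.0252 for Ctsg in dividing cells, and in monocyte-leaning cells to 0.37 (young) and 0.91 (aged) for Ms4a3. Apart from what the alternatives change by construction (other cells, genes or libraries), the cause was not tested. Mpo and Elane in stem and granulocyte progenitors passed the stroke test in 8 of 8 alternatives each. Depth limits the low values: in blood neutrophils 3 UMIs correspond to 0.481 CPM (young) and 0.219 CPM (aged).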

Other observations

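A cluster of marrow after stroke that stayed unnamed, with a low median of 1152 (young) and 1368 (aged) UMIs per cell in 181 and 161 cells, carried the early transcripts: Prtn3 stood at 5959 and 6652 CPM, Ctsg at 3544 and 5108 CPM, Elane at 2356 and 2923 CPM and Mpo at 2152 and 2571 CPM. As in the named granulocyte progenitors after stroke, Prtn3 was the highest of these 4 and exceeded Mpo in both libraries. These cells were in no comparison.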
